A study of Mus musculus with 5 samples.

Results

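The genes described here are the families of axon guidance cues, their receptors and the collapsin response mediator proteins in the dentate gyrus (DG) of adult mice. They were chosen by symbol alone: semaphorins (Sema), plexins (Plxn), Eph receptors (Epha, Ephb), ephrins (Efna, Efnb), Slits, Robos, the netrin receptors Unc5a to Unc5d, Dcc and Neo1, the netrins Ntn1, Ntn4, Ntng1 and Ntng2, and the cytoplasmic proteins Dpysl2 to Dpysl5 and Crmp1. This rule found 73 genes among the 23420 symbols in the files, of which 35 code for ligands, 33 for receptors and 5 for cytoplasmic proteins. Their values did not enter this rule, but earlier results of these data were known when it was set. Of the 73 genes, 69 had a mean value of at least 5 over the libraries and are called expressed here, as did 13550 of all symbols.

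RNA of the microdissected whole DG was sequenced from 5 groups of wild-type CD1 mice, an outbred strain, aged 4 months per the labels, each as 1 library of pooled RNA. LD mice lived alone with a locked disk, RUN mice lived alone with a running disk, and CE (complex environment) mice lived in groups of 3 with a locked disk and with tunnels that were moved daily, in each case for 4 weeks and with 8 mice in the pool. The same 8 RUN mice also gave the L-RUN library, with RNA of the 4 that ran the least, and the H-RUN library, with RNA of the 4 that ran the most. CE thus differs from LD in both company and tunnels, and every runner library holds mice that lived alone. No group had a replicate library, so no comparison below has a p-value, and a difference between pools cannot be told apart from a difference between the mice in them.

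Guidance cues are secreted or membrane-bound proteins that attract or repel growing axons and dendrites through receptors on the growth cone. Semaphorins act through plexins, partly with neuropilins as coreceptors, ephrins through Eph receptors, Slits through Robo receptors, and netrins through Dcc, neogenin (Neo1) and Unc5 receptors. Many of these genes stay active in the adult brain. In the DG, where granule cells are born throughout life and send their mossy fibres to CA3, members of these families are known to act in the growth of new processes and in the shape and strength of synapses.

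Each value is a regularized log value on the log2 scale, which the authors shrank towards the mean of the gene, so a difference of 1 would stand for a doubling and true changes are understated. A difference is the value of a library minus that of LD, or the value of H-RUN minus that of L-RUN, and genes were called changed from 0.3 in size upwards, the cut-off of the study. The RUN pool holds the mice of both L-RUN and H-RUN, so the distance of its value from that of an equal mixture of those 2 libraries gives the noise of library preparation and sequencing. Scaled to a difference between 2 libraries, this technical SD was 0.0365 over all expressed genes and 0.0222 to 0.0473 in deciles of expression, and 0.3 is 8.23 times the former. This SD rests on the runner libraries alone and does not hold the differences between mice. The read counts behind the values are not in the files used here, so the sequencing depth is unknown.

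Markers of the DG and of its neighbours were read in the same libraries. The 6 granule cell markers were all expressed, with a summed level, as log2, of 14.4 to 14.5 in the 5 libraries, and so were 6 markers of CA1 and CA3 pyramidal cells, at 15.1 to 15.2. Most of the pyramidal cell sum came from Nptx1, at 14.9 in LD, with Cpne4 next at 11.8. The sums therefore do not rank the amounts of these cell types. The 10 markers of leptomeningeal fibroblasts, the cells of the membranes around the brain, had a summed level of 11.5 in LD and 11.7 in CE, with 11.8 in RUN, 11.4 in H-RUN and 12.2 in L-RUN. Of these 10, 1 was past 0.3 in H-RUN, 3 in CE, 6 in RUN and 7 in L-RUN. No marker was at 0 in any library. In pooled tissue, fewer cells of a type and less RNA per cell cannot be told apart.

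Of the 69 expressed guidance genes, 0 were past 0.3 in CE, where 0.598% of all expressed genes were. In RUN, 3 were past it (4.35%), 1 higher and 2 lower than in LD, beside 1.31% of all expressed genes. In L-RUN, 7 were past it (10.1%), 1 higher and 6 lower, beside 3.13% of all expressed genes in either direction and 2.33% in the lower direction. In H-RUN, 2 were past it (2.90%), both higher, beside 0.827% of all. Between the 2 runner pools, 5 guidance genes were past 0.3 (7.25%), all of them higher in H-RUN than in L-RUN, beside 1.54% of all expressed genes in either direction and 0.974% in that direction. In all, 11 of the 69 genes were past 0.3 in at least 1 of the 5 comparisons and 58 in none. The comparisons with LD share that library, and RUN shares its mice with L-RUN and H-RUN, so these counts are not independent of each other.

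**Figure D1:**
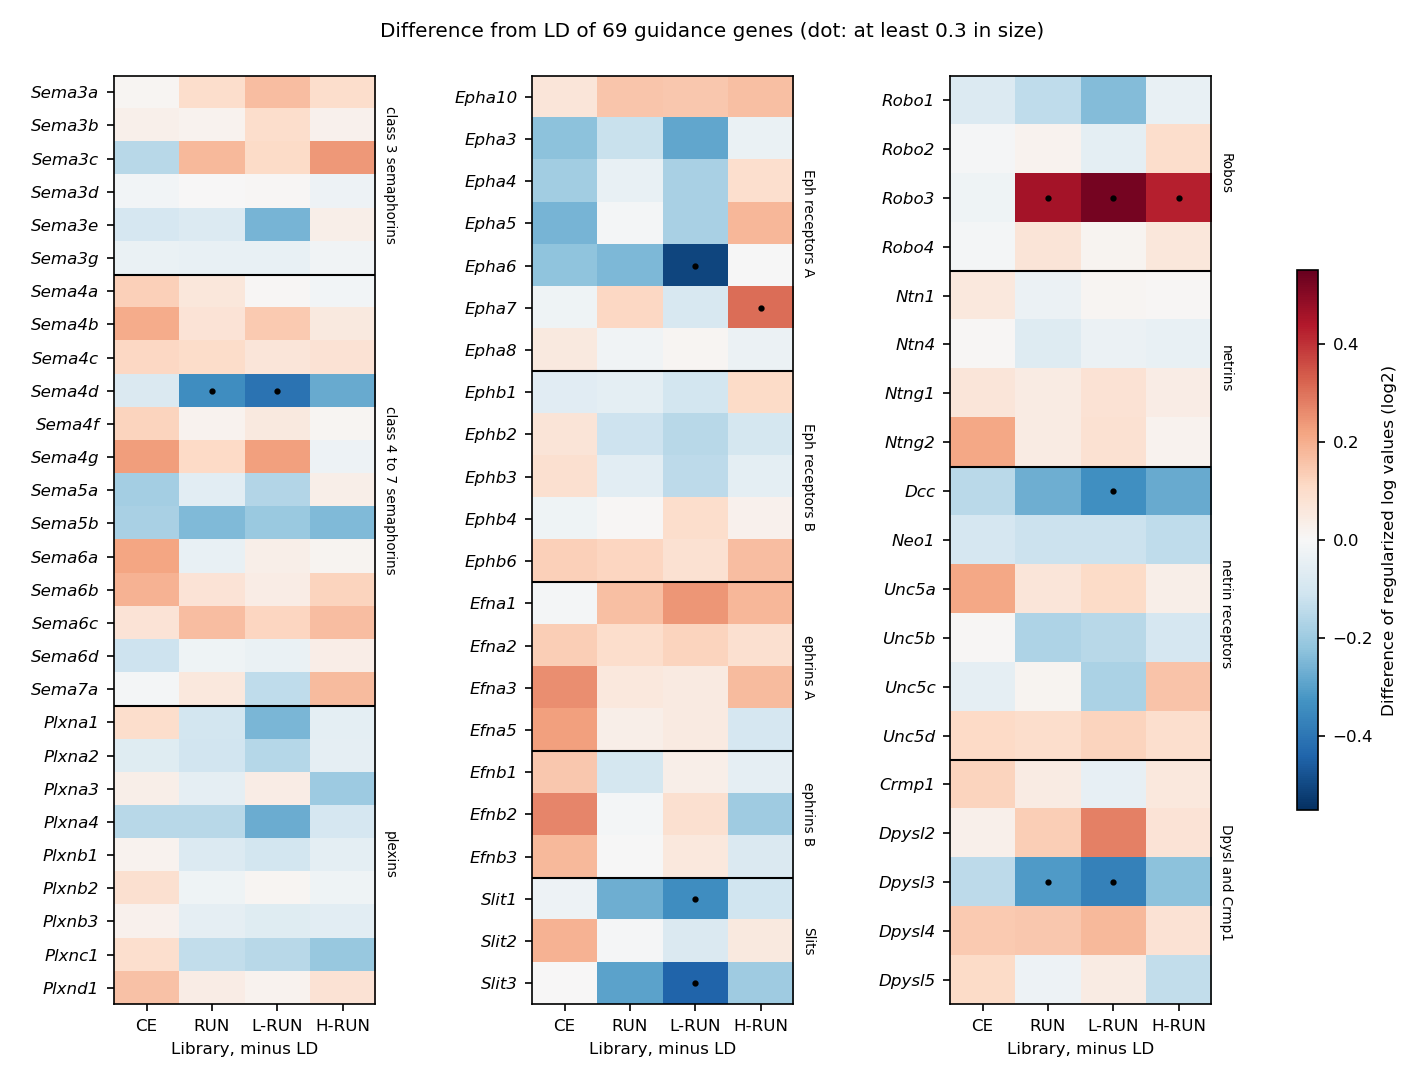
Difference from LD (log2, colour) of the 69 expressed guidance genes in the CE, RUN, L-RUN and H-RUN libraries, by family, 1 library per group; a dot marks a difference of at least 0.3 in size. Robo3 is the only gene with a dot in all 3 runner columns, and the CE column holds no dot.

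The median difference of the 69 genes was 0.03 in CE, 0.01 in L-RUN, -0.01 in RUN, 0.02 in H-RUN and 0.02 between H-RUN and L-RUN, while that of all expressed genes lay within 0.01 of 0 in each comparison. With the trend of differences with transcript length removed, the median of the guidance genes was 0.06 in CE, with 49 of 69 genes above LD in place of 41, 0.04 in L-RUN with 41 above in place of 36, and 0.03 in RUN with 47 above in place of 32. Without removal of the length trend, the guidance genes had a wider median range than all expressed genes. The range was not recomputed with that trend removed. The range of a gene over the 5 libraries had a median of 0.2197 among them and of 0.124 among all expressed genes, and it reached from 0.04 for Sema3d to 0.55 for Robo3. The library with the highest value was CE for 31 of the 69 genes (44.9%), beside 22.9% of all expressed genes, and the library with the lowest value was L-RUN for 24 of them (34.8%), beside 28.1% of all. CE was the highest library for 18 of the 33 ligands, and L-RUN was the lowest for 15 of the 31 receptors. These ranks were taken without removal of the length trend, and receptor transcripts are long, with a median of 6746 bases beside 3523 for all expressed genes. With the trend removed, the receptor median in L-RUN went from -0.10 to -0.01. Of the 31 receptors, 17 were then below LD and 14 above it, in place of 20 and 11.

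Of the Robo and Slit genes, Robo3, Slit1 and Slit3 were past 0.3 in at least 1 runner library. Robo3 is a divergent member of the Robo family, known for its part in letting commissural axons cross the midline, and in mammals it is not a high-affinity Slit receptor. The value of Robo3 was 10.74 in LD, 10.72 in CE, 11.20 in RUN, 11.17 in H-RUN and 11.27 in L-RUN. All 3 runner libraries were thus above both libraries of mice with a locked disk. RUN holds the mice of L-RUN and H-RUN, so its place follows from theirs and is not a separate observation. The share of all expressed genes ordered this way is not given here, nor for Slit1, Slit3, Sema4d, Dcc and Dpysl3 below. The difference from LD was 0.46 in RUN, 0.43 in H-RUN and 0.52 in L-RUN, or 14.9, 13.9 and 17.0 technical SDs, which on the shrunken scale is a level 37.5%, 34.4% and 43.9% above that of LD. In CE it was -0.03, less than 1 technical SD. Robo3 was the only guidance gene past 0.3 in all 3 runner libraries, and its difference between H-RUN and L-RUN was -0.10.

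Robo3 lies on the minus strand of chromosome 9 (chr9:37415669-37433246, GRCm38), and none of its annotated exons overlaps those of another gene. Its proximal promoter is printed because it was the only guidance gene past 0.3 in all 3 runner libraries. The 250 bases upstream of the RefSeq start (GRCm38.p6) were cut to the 179 that lie outside the annotated gene. They span chr9:37433247-37433425 on the minus strand, written 5′ to 3′ with the GC box, GGGCGG or its reverse complement CCGCCC, in capitals:
Robo3 promoter: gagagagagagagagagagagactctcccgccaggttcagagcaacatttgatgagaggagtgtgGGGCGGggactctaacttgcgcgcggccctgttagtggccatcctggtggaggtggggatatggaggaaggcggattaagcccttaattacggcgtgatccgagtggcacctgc
These 179 bases were 58.1% G or C and held 1 GC box, and none of TGACG (the cAMP response element half-site), TATAAA and CCAAT on either strand. Over 32851 RefSeq promoters, the 250 bases upstream held a GC box in 32.7%, a TGACG in 17.8%, a TATAAA in 12.4% and a CCAAT in 33.8%. The stretch of Robo3 is shorter than these windows and lacks the bases nearest the RefSeq start, so the shares are not a like comparison. A match or its absence is a description of these letters and says nothing about binding of a factor.

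The other Robo genes moved less. Robo1, a Slit receptor of many developing axons, had values of 10.06 in LD, 9.98 in CE, 9.82 in L-RUN, 9.92 in RUN and 10.02 in H-RUN, the lowest being L-RUN at -0.24 from LD. Robo2, the member with the highest level per kilobase of transcript, stayed between 11.83 in L-RUN and 11.98 in H-RUN. Robo4, an endothelial member, differed from LD by at most 0.07 in size. All 4 Robo genes lay below LD in CE, by 0.07 at most, and only Robo1 by more than 1 technical SD, and with the length trend removed 3 of the 4 lay above it.

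Slit1, Slit2 and Slit3 are secreted repellents that bind Robo1 and Robo2. The value of Slit1 was 12.77 in LD and 12.74 in CE, with 12.50 in RUN, 12.65 in H-RUN and 12.42 in L-RUN. The value of Slit3 was 10.83 in LD, 10.83 in CE, 10.53 in RUN, 10.63 in H-RUN and 10.39 in L-RUN. For both genes, the 3 runner libraries lay below LD and CE, in the order H-RUN, RUN and L-RUN from the highest down. RUN holds the mice of both other runner pools, so its middle place adds nothing of its own. In L-RUN the difference from LD was -0.34 for Slit1 and -0.44 for Slit3, 15.5 and 12.2 technical SDs. In RUN, Slit3 stood just inside the cut-off at -0.296, and Slit1 was at -0.27. In H-RUN the differences were -0.11 and -0.20.

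Slit2 had values of 9.98 in LD, 10.17 in CE, 9.90 in L-RUN, 9.97 in RUN and 10.03 in H-RUN. It was thus highest in CE and within 0.08 of LD in every runner library. All 3 Slits were lowest in L-RUN, and all were higher in H-RUN than in L-RUN, by 0.13 to 0.24. Slit1 lies on chromosome 19 (chr19:41600257-41743665, minus strand) and Slit3 on chromosome 11 (chr11:35121224-35708507, plus strand).

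**Figure D2:**
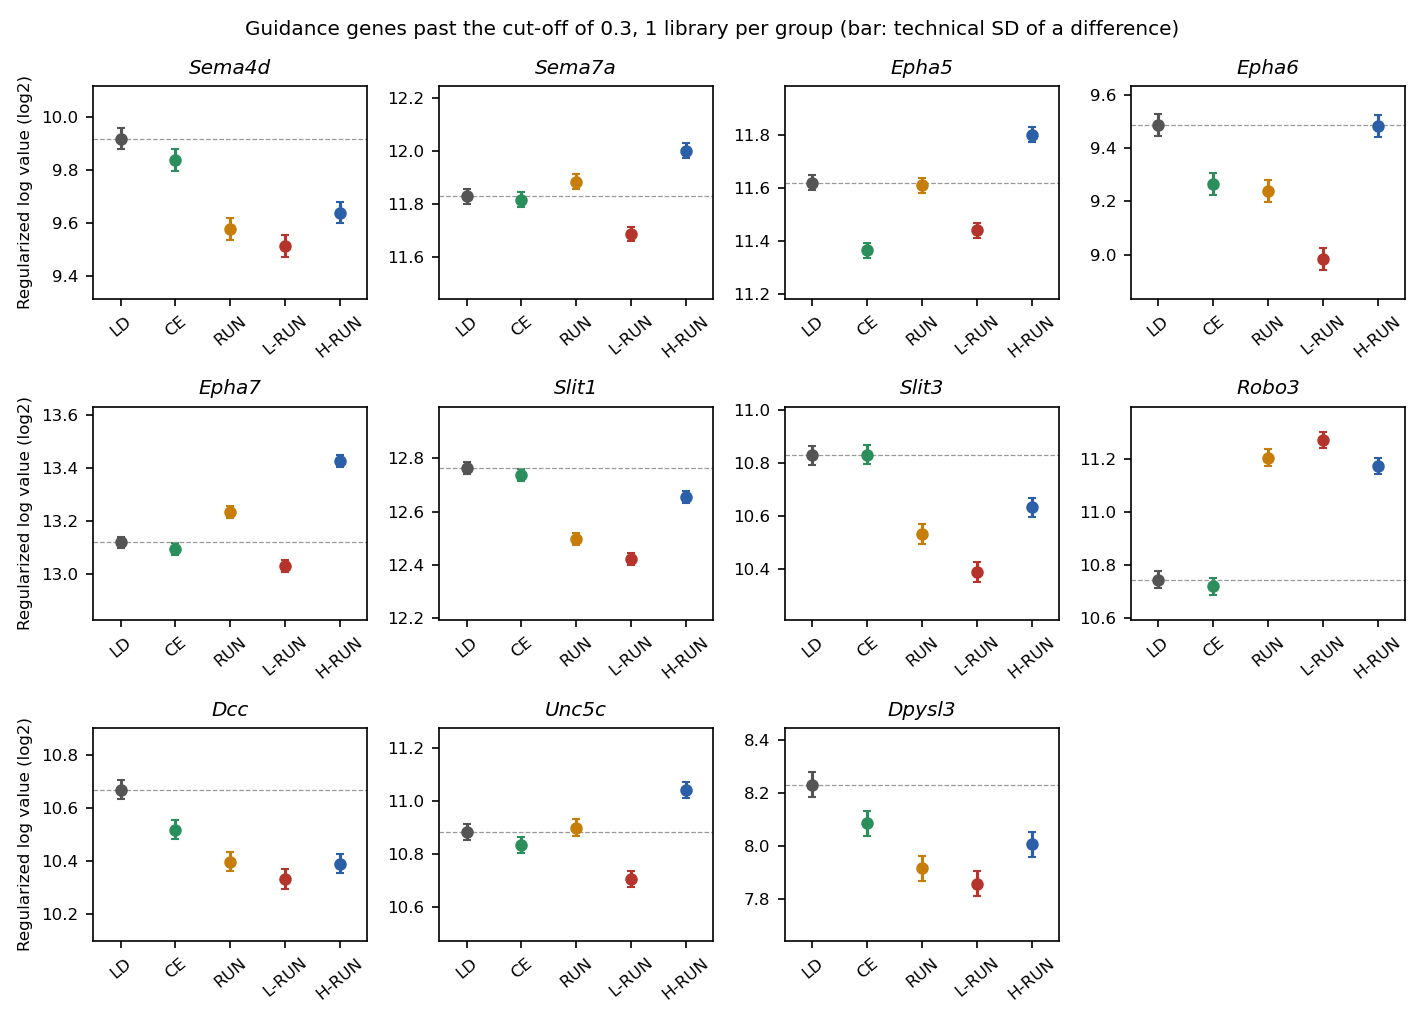
Regularized log value (log2) of the 11 guidance genes past 0.3 in any comparison, in the 5 libraries; the bar is the technical SD of a difference, the dashed line is the LD value and every panel spans the same 0.8 units. The 3 runner points of Robo3 lie above LD and CE, those of Sema4d, Slit1, Slit3, Dcc and Dpysl3 lie below them, and Sema7a, Epha5, Epha7 and Unc5c are highest in H-RUN.

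Semaphorins, 19 of which were expressed, showed 1 gene past 0.3 in a comparison with LD. Sema4d is a transmembrane semaphorin that binds plexin-B1 (Plxnb1). The value of Sema4d was 9.92 in LD and 9.84 in CE, with 9.58 in RUN, 9.64 in H-RUN and 9.51 in L-RUN. Every runner library lay below both libraries with a locked disk, at -0.34 from LD in RUN, -0.28 in H-RUN and -0.40 in L-RUN, or 8.46, 6.93 and 10.03 technical SDs. The study lists all 8 guidance genes that were past 0.3 against LD here, at the same cut-off and from these same libraries. Its text names Sema4d and Dpysl3 and, for the low runners, semaphorins and the netrin, slit and NRCAM families. The values of these genes here are thus not independent of the study's own results. Sema4d lies on chromosome 13 (chr13:51685529-51793747, minus strand). The gene of its receptor, Plxnb1, was between 11.31 in L-RUN and 11.43 in CE.

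The other transmembrane and membrane-anchored semaphorins moved in both directions. Sema7a, which is held in the membrane by a GPI anchor and has the highest level per kilobase of the semaphorins, was at 11.83 in LD, 11.82 in CE, 11.88 in RUN, 12.001 in H-RUN and 11.69 in L-RUN. LD, CE and RUN lay within 0.07 of each other, with L-RUN below and H-RUN above them, and the difference between H-RUN and L-RUN was 0.31, or 11.1 technical SDs. Sema4g went the opposite way, at -0.26 between H-RUN and L-RUN, and was 0.23 above LD in both CE and L-RUN. Sema5b lay below LD in all other libraries, at -0.18 in CE, -0.24 in both RUN and H-RUN, and -0.21 in L-RUN, whereas Sema6c lay above it in all, by 0.08 to 0.17.

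Of the 6 expressed class 3 semaphorins, which are secreted, 0 passed 0.3 in any comparison. Sema3c had the largest range in this class, with values of 9.33 in LD, 9.18 in CE, 9.44 in L-RUN, 9.51 in RUN and 9.57 in H-RUN. It was thus lowest in CE and highest in H-RUN, 0.24 above LD. Sema3e, which can act on plexin-D1 without a neuropilin and has the highest level per kilobase in the class, was at 10.42 in LD and 10.32 in CE, with 10.34 in RUN, 10.45 in H-RUN and 10.16 in L-RUN. Its low point in L-RUN was -0.25 from LD, and H-RUN and L-RUN differed by 0.29, just inside the cut-off. Sema3a, the classical collapsing factor, was lowest in LD at 6.65 and highest in L-RUN at 6.82. Sema3f was below the minimum level, with values of 4.65 to 4.75.

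Plexins, the receptors of the semaphorins, had 0 of 9 genes past 0.3, but 8 of the 9 lay below LD in RUN and 8 in H-RUN, with a family median of -0.08 and -0.06. Plxnd1 was the exception in both, at 0.04 and 0.08. Plxna1 had values of 11.25 in LD and 11.35 in CE, with 11.15 in RUN, 11.20 in H-RUN and 11.002 in L-RUN. Plxnc1, a receptor of Sema7a, had values of 10.63 and 10.72 in LD and CE, and of 10.49, 10.42 and 10.48 in RUN, H-RUN and L-RUN. Both were highest in CE and lower in the runner libraries. Plxna4, the plexin with the highest level per kilobase, was at 13.45 in LD, 13.30 in CE and RUN, 13.36 in H-RUN and 13.18 in L-RUN. CE was the highest library for 6 of the 9 plexins. Plexin transcripts are long, and once the trend of differences with transcript length was removed, 3 of 9 plexins lay below LD in RUN and 4 in H-RUN, so the common direction was not kept.

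Eph receptors and ephrins stood in opposite order between the 2 runner pools. Of the 7 expressed EphA receptors, 6 were higher in H-RUN than in L-RUN, 3 of them by more than 0.3, with a family median of 0.27. Of the 7 expressed ephrins, 6 were lower in H-RUN than in L-RUN, with a median of -0.09, and 0 passed 0.3. EphA receptors bind the GPI-anchored ephrins-A, EphB receptors bind the transmembrane ephrins-B, and Epha4 can bind both classes. Among all expressed genes, the median difference between H-RUN and L-RUN was within 0.01 of 0.

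Epha6 had values of 9.49 in LD, 9.26 in CE, 9.24 in RUN, 9.48 in H-RUN and 8.98 in L-RUN. H-RUN thus equalled LD to within 0.1 technical SDs, while L-RUN was -0.50 from LD, or 12.1 technical SDs, the lowest difference of any guidance gene. Between the 2 runner pools Epha6 differed by 0.50. The value of Epha7 was 13.12 in LD, 13.10 in CE, 13.03 in L-RUN, 13.23 in RUN and 13.43 in H-RUN. For Epha7 it was H-RUN that stood apart, 0.31 above LD (13.8 technical SDs) and 0.40 above L-RUN. The value of Epha5 was 11.62 in LD and 11.37 in CE, with 11.61 in RUN, 11.80 in H-RUN and 11.44 in L-RUN. Epha5 was 0.18 above LD in H-RUN and 0.18 below it in L-RUN, a difference of 0.36 between the pools, and it was lowest in CE at -0.25 from LD.

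Epha4 and Epha3 ran the same way without passing the cut-off. Epha4, the EphA receptor with the highest level per kilobase, was at 13.81 in LD, 13.62 in CE, 13.77 in RUN, 13.90 in H-RUN and 13.63 in L-RUN. Its difference between H-RUN and L-RUN was 0.27, and that of Epha3 was 0.25. Epha10, which lacks kinase activity, differed from this pattern, since it was 0.15 to 0.17 above LD in all 3 runner libraries and differed by 0.02 between H-RUN and L-RUN. Epha8 was the only EphA receptor that was lower in H-RUN than in L-RUN, by -0.04. Epha1, at 2.27 to 2.30, and Epha2, at 4.501 to 4.54, were below the minimum level, and the exons of Epha1 overlap those of Zyx on the opposite strand, so its few reads are uncertain. Exons of Epha6 share 107 bases with Gm9017, an antisense gene with no value in the files. Whether reads were counted by strand is not given in the sources used here. Of the 73 guidance genes, 16 have exons that overlap another gene, among them Plxna1, with 970 bases shared with an antisense gene, and Efna3, with 344.

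The promoters of the 3 EphA genes past 0.3 between the runner pools are printed because they led the difference between H-RUN and L-RUN, although their differences from LD were unlike, as given above. Each is the 250 bases upstream of the gene from RefSeq (GRCm38.p6), 5′ to 3′ on the strand of the gene, with GC boxes in capitals. The regions are chr5:84417383-84417632 (minus strand) for Epha5, chr16:60605532-60605781 (minus strand) for Epha6 and chr4:28812881-28813130 (plus strand) for Epha7:
Epha5 promoter: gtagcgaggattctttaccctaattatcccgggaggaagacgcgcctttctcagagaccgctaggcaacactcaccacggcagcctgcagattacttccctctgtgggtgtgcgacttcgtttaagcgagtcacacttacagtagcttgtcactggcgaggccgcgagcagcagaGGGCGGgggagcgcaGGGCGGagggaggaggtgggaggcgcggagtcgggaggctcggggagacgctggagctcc
Epha6 promoter: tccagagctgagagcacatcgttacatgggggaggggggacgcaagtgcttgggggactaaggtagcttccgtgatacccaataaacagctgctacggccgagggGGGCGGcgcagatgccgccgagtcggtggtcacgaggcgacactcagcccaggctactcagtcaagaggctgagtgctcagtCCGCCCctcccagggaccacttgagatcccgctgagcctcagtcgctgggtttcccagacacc
Epha7 promoter: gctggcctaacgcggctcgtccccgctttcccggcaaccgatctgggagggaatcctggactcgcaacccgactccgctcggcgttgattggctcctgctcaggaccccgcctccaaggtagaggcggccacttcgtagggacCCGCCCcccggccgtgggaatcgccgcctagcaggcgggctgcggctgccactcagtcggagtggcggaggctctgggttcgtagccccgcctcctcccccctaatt
G and C made up 62.4% of the Epha5 promoter, 62.8% of that of Epha6 and 69.2% of that of Epha7. Epha5 and Epha6 held 2 GC boxes each and Epha7 held 1, against a share of 32.7% of all promoters with at least 1. Epha6 and Epha7 held 1 CCAAT each and Epha5 none, and TGACG and TATAAA were found in none of the 3.

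**Figure D3:**
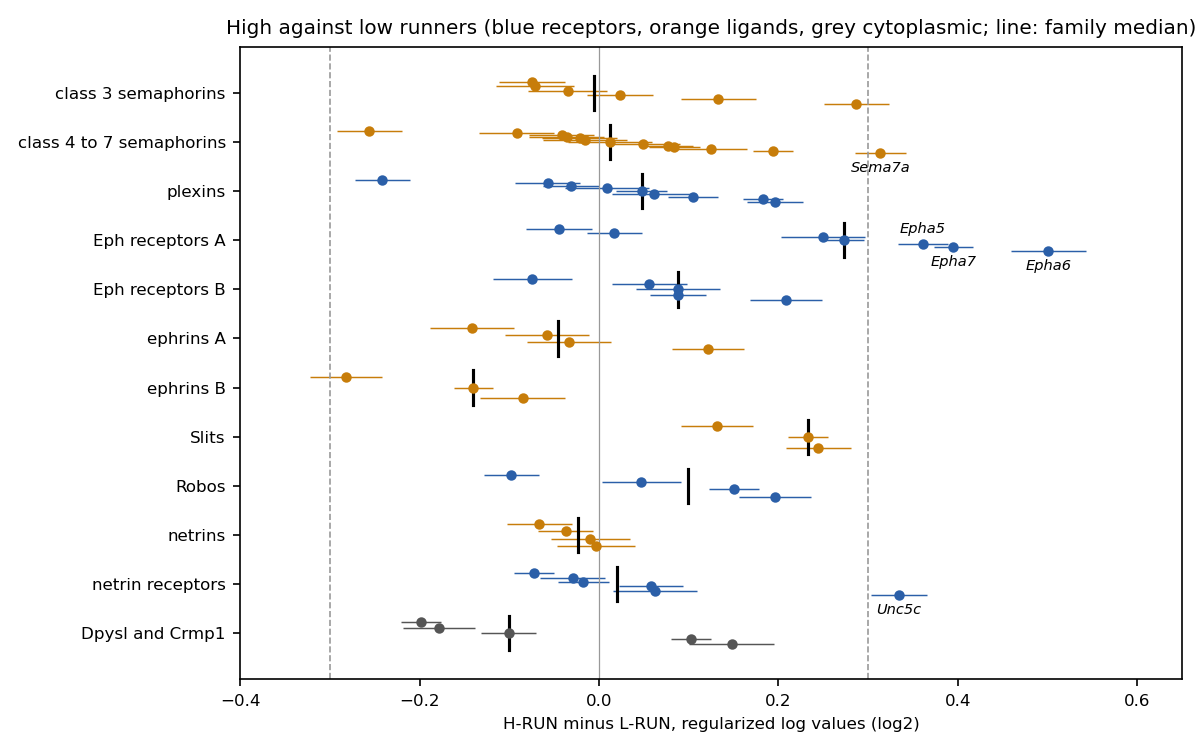
H-RUN minus L-RUN (log2) of the 69 expressed guidance genes by family; points are genes, horizontal bars are the technical SD of a difference, black lines are family medians and dashed lines mark 0.3 in size. The 5 labelled genes are past 0.3, all on the side of H-RUN, 3 of them EphA receptors, and 6 of the 7 ephrins lie left of 0.

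Ephrins were led by Efnb2, a transmembrane ligand of EphB receptors and Epha4. The value of Efnb2 was 9.99 in LD, 10.26 in CE, 10.08 in L-RUN, 9.98 in RUN and 9.80 in H-RUN. CE was the highest library, 0.27 above LD, H-RUN the lowest, and H-RUN and L-RUN differed by -0.28. Efnb3, the ephrin with the highest level per kilobase, followed the same order with 12.37 in LD and 12.55 in CE, with 12.37 in RUN, 12.29 in H-RUN and 12.43 in L-RUN. Efna5 was also highest in CE, at 7.81, and lowest in H-RUN, at 7.49, with 7.58 in LD. Efna3 was the only ephrin that was higher in H-RUN than in L-RUN, by 0.12, and it was highest in CE, at 9.94 beside 9.68 in LD. Efna1 was 0.17 to 0.24 above LD in the runner libraries and -0.01 from it in CE. Efna4, at 4.21 to 4.24, was below the minimum level.

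EphB receptors moved less than EphA receptors, with 0 of 5 past 0.3 and a family median of 0.09 between H-RUN and L-RUN. Ephb3 had the largest range, with 7.97 in LD, 8.06 in CE, 7.92 in both RUN and H-RUN, and 7.83 in L-RUN. Ephb2 followed the same course, with 9.502 in LD, 9.57 in CE, 9.39 in RUN, 9.41 in H-RUN and 9.35 in L-RUN. Both were highest in CE and lowest in L-RUN. Ephb6, which lacks kinase activity and has the highest level per kilobase of the EphB receptors, lay above LD in all libraries, by 0.08 to 0.17. Ephb1 differed most between the runner pools, at 0.21.

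Markers of some cell types, but not of all, also differed between the runner pools. Between H-RUN and L-RUN, 8 of the 10 leptomeningeal markers were past 0.3, with a median of -0.68, while the 6 granule cell markers had a median of 0.16 with 1 of 6 past 0.3, the 6 pyramidal cell markers 0.17 with 2 of 6, and the 6 oligodendrocyte markers 0.17 with 0 of 6. The remaining lists held 0 markers past 0.3. Their medians were -0.06 for immature neurons, -0.05 for interneurons, -0.01 for microglia and 0.02 for choroid plexus. They were 0.08 for both astrocytes and endothelial cells, and 0.10 for oligodendrocyte precursors. The part of any of these cells in the differences of the Eph receptors and ephrins was not tested. Against LD, the medians in L-RUN were 0.65 for leptomeningeal, -0.23 for granule cell, -0.28 for pyramidal cell and -0.20 for oligodendrocyte markers. Their part in the lower values of Slit1, Slit3, Sema4d, Epha6, Dcc and Dpysl3 in L-RUN was likewise not tested. In H-RUN against LD, the leptomeningeal median was -0.02 with 1 of 10 past 0.3, and the granule cell median -0.09 with 1 of 6. The pyramidal cell median was -0.04 with 2 of 6, and the oligodendrocyte median -0.01 with 0 of 6. Their part in the higher values of Robo3 and Epha7 in H-RUN was not tested either.

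Netrins themselves moved little. The secreted netrin Ntn1 stayed between 7.10 in RUN and 7.19 in CE, and Ntn4 between 6.44 and 6.52. Ntng2, a GPI-anchored netrin-G that binds the adhesion molecules of the Lrrc4 family and not Dcc, had the largest range in the family and the highest level per kilobase, with 10.21 in LD, 10.42 in CE, 10.26 in RUN, 10.23 in H-RUN and 10.30 in L-RUN. It was 0.21 above LD in CE, and its exons share 558 bases with a transcript on the same strand. All 4 netrins were at or above LD in CE and lower in H-RUN than in L-RUN, the latter by at most 0.07.

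Netrin receptors held 2 genes past 0.3. Dcc, the receptor for attraction by netrin-1, was at 10.67 in LD, 10.52 in CE, 10.33 in L-RUN, 10.40 in RUN and 10.39 in H-RUN. LD was thus the highest library, and the difference from LD was -0.15 in CE, -0.27 in RUN, -0.28 in H-RUN and -0.34 in L-RUN (9.28 technical SDs). Dcc has a longest transcript of 10323 bases, and with the length trend removed its difference in L-RUN was -0.20, short of the cut-off. Unc5c, a receptor for repulsion by netrin-1, was at 10.88 in LD and 10.83 in CE, with 10.90 in RUN, 11.04 in H-RUN and 10.71 in L-RUN. Like Sema7a and Epha5, it lay on opposite sides of LD in the 2 runner pools, with 0.33 between them, or 0.27 with the length trend removed. Its exons share 118 bases with the antisense gene Gm15688.

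Among the other netrin receptors, Unc5a had the highest level per kilobase, with 12.62 in LD, 12.83 in CE, 12.68 in RUN, 12.65 in H-RUN and 12.72 in L-RUN. It was thus highest in CE, by 0.21 over LD. Unc5b was lower than LD in the runner libraries at -0.17 in RUN, -0.09 in H-RUN and -0.15 in L-RUN, and Unc5d was higher by 0.09 to 0.12 in every library. Neo1, a receptor for netrins and for repulsive guidance molecules, lay -0.09 to -0.14 from LD in all other libraries.

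Collapsin response mediator proteins carry the semaphorin signal to microtubules and actin. Dpysl3 was at 8.23 in LD, 8.09 in CE, 7.86 in L-RUN, 7.92 in RUN and 8.01 in H-RUN. Every library lay below LD, and the difference reached -0.31 in RUN and -0.37 in L-RUN, or 6.65 and 7.90 technical SDs, with -0.22 in H-RUN. Dpysl2, the tubulin-binding member, went the other way, with 12.46 in LD and 12.49 in CE, with 12.60 in RUN, 12.54 in H-RUN and 12.73 in L-RUN. At 0.28 in L-RUN it was 12.4 technical SDs above LD but short of the cut-off, and with the length trend removed it was past it, at 0.31. Crmp1, with the highest level per kilobase of all 69 genes, stayed between 12.86 in L-RUN and 13.03 in CE. Dpysl4 was above LD in every library, by 0.08 to 0.18.

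In CE, no guidance gene reached 0.3, and the pattern can be read only at a lower cut-off. At 0.2, 11 of the 69 genes were called (15.9%), beside 3.77% of all expressed genes. Of these, 8 were higher than in LD, namely the ligands Sema4b (0.20), Sema4g (0.23), Sema6a (0.22), Efna3 (0.26), Efna5 (0.23), Efnb2 (0.27) and Ntng2 (0.21) and the receptor Unc5a (0.21). The 3 that were lower were all EphA receptors, Epha3 (-0.23), Epha5 (-0.25) and Epha6 (-0.22). Most ephrins and most EphA receptors were thus on opposite sides of LD in CE. The EphB receptors were not opposite to the ephrins, with 3 of 5 above LD and a median of 0.07. The values of 6 of the 7 ephrins were above LD, with a median of 0.18, and those of 5 of the 7 EphA receptors were below it, with a median of -0.19. In CE, 3 of the 10 leptomeningeal markers were past 0.3. Of the 4 choroid plexus markers, Ttr was past it at 0.62, Kl was at 0.03, and Folr1 and Clic6 were below the minimum level. The part of these cells in the differences of the ephrins and EphA receptors was not tested.

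Ephrin transcripts are shorter than those of the EphA receptors, with a median of 3183 bases beside 5663. Removing the length trend left the ephrin medians in CE at 0.17 for both the A and the B class and the EphA median at -0.15, and 4 of the 7 EphA receptors then lay below LD. Between H-RUN and L-RUN it left the EphA median at 0.23, with 5 of 7 above 0, and it took Efnb2 past the cut-off, at -0.31.

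Length matters for these families as a whole. All 69 genes had an annotated length, with a median of 5191 bases for the longest transcript beside 3523 bases for all expressed genes, and when all expressed genes were ranked by length into 5 equal bins, 33 of them were in the longest bin and 2 in the shortest. Over all expressed genes, the median difference of L-RUN from LD went from 0.07 in the shortest bin to -0.10 in the longest. With this trend removed, Sema4d, Slit3, Epha6, Dpysl3 and Robo3 were still past 0.3 in L-RUN, at -0.37, -0.39, -0.49, -0.31 and 0.57, while Slit1, at -0.28, and Dcc were not. In RUN, Robo3 (0.50) and Sema4d (-0.31) were still past it and Dpysl3 (-0.27) was not, and in H-RUN both Robo3 (0.45) and Epha7 (0.35) were. Between the runner pools, Sema7a (0.31), Epha5 (0.31), Epha6 (0.49) and Epha7 (0.35) were still past it and Unc5c was not. With the trend removed, 2.20% of all expressed genes with a length were past 0.3 in L-RUN and 0.870% in RUN. The shares were 0.666% in H-RUN and 1.35% between the runner pools.

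**Figure D4:**
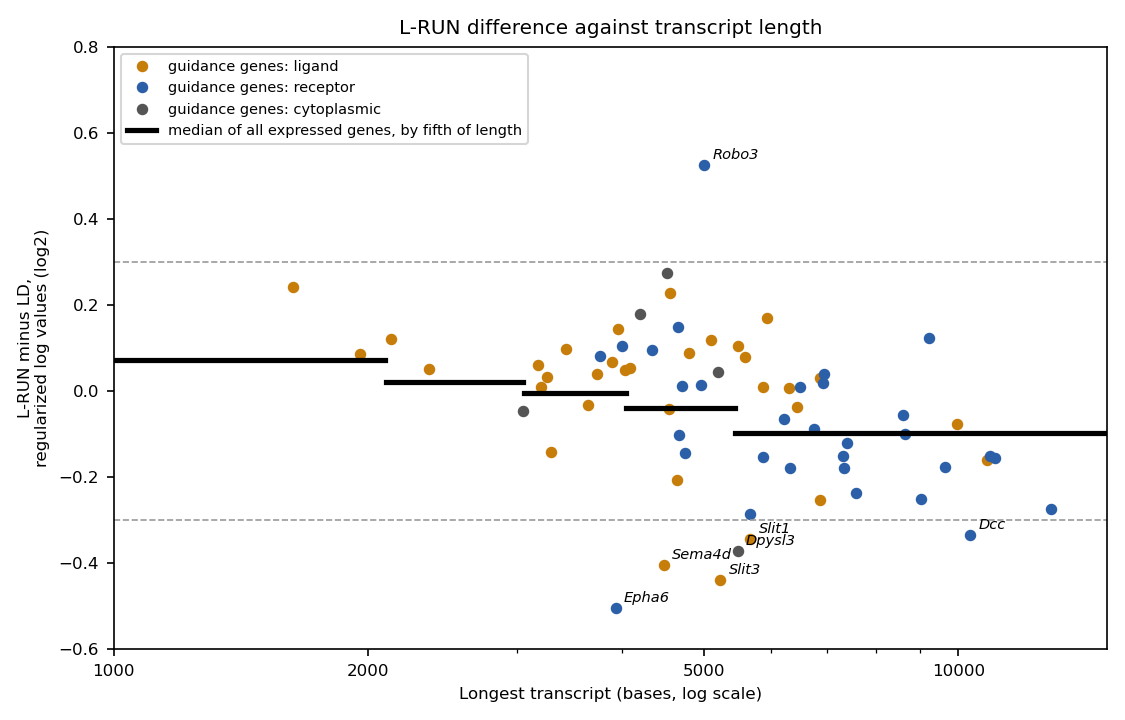
L-RUN minus LD (log2) of the 69 expressed guidance genes against the length of the longest transcript (bases, log scale); black lines are the medians of all expressed genes in 5 equal bins of length and dashed lines mark 0.3 in size. Robo3 stands above the upper dashed line and Epha6, Slit3, Sema4d, Slit1, Dpysl3 and Dcc below the lower, and the median of the longest bin, which holds Dcc, is -0.10.

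Other genes of the guidance pathways were read as well. From a list of 70 coreceptors and binding partners, sheddases and cytoplasmic effectors, all expressed, 0 were past 0.3 in CE, RUN, H-RUN and between the runner pools. In L-RUN, 2 of 70 were (2.86%), both lower, a share near the 3.13% of all expressed genes, so this count is not a result about the list. These were Rgmb, a repulsive guidance molecule that binds neogenin, with 9.94 in LD and 9.62 in L-RUN (-0.32), and Nrcam, a cell adhesion molecule and semaphorin coreceptor, with 13.43 and 13.12 (-0.31), and neither was past 0.3 with the length trend removed, at -0.25 and -0.23. The study lists Rgmb and Nrcam for the low runners too, from these same libraries. Lrrc4b, an adhesion molecule of the postsynaptic membrane, stood just inside the cut-off in CE, at 0.2998. The median of the 46 cytoplasmic effectors was within 0.06 of 0 in every comparison. The class 3 coreceptors Nrp1 and Nrp2 differed from LD in L-RUN by -0.05 and -0.20.

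The RUN library allowed a check of the runner libraries against each other, while LD and CE had no such check. For the 69 guidance genes, the distance of RUN from the computed mixture of both runner pools ran from -0.09 for Efnb1 to 0.07 for Sema4a, with an SD of 0.0310, and 0 genes were 0.1 or more away. Robo3, Sema4d, Slit1, Slit3, Dcc and Dpysl3 in RUN thus lay near the mean of the 2 smaller pools. This agreement bears on the noise of the runner libraries and not on the difference between runners and other mice, since the same 8 mice stand in both.

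**Figure D5:**
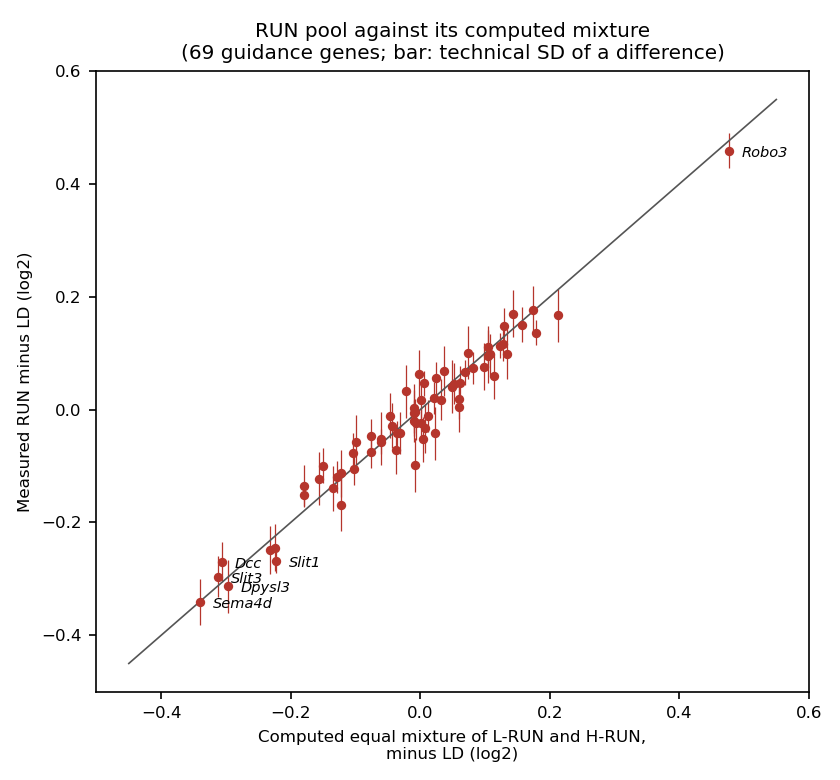
Measured RUN minus LD (log2) of the 69 expressed guidance genes against the same difference computed for a mixture of both runner pools in equal parts; the line is equality and the bar is the technical SD of a difference. The points follow the line from Sema4d, at -0.34 measured, to Robo3, at 0.46 measured, and none is 0.1 or more from it. The same LD value is subtracted on both axes, so the spread along the line is partly shared, and RUN holds the mice of both pools.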

How the data were processed

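RNA-Seq of the DG was performed by the authors on 5 libraries of pooled RNA, 1 per group, as described above. Per the submitters' processing notes and methods, the authors aligned trimmed reads to mm10 with TopHat2 (version 2.0.10), obtained counts per RefSeq gene with HTSeq, and normalized the 5 samples jointly in DESeq2 (version 1.10.1). The deposited regularized log values, 1 per library for each gene, are on a log2 scale and were taken unchanged. Their counts, and with them the depth, are not in the files used here, so no count model, p-value or interval could be computed.

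Differences of 2 libraries were called at 0.3 in size, among genes with a mean of at least 5. The technical SD was the scaled median absolute deviation, per decile of mean value, of RUN minus the log2 value of an equal linear mixture of H-RUN and L-RUN, times the square root of 2/1.5, which takes the 3 libraries as equally noisy. Positions, exons and transcript lengths came from GENCODE for GRCm38 by symbol, and 94.2% of expressed genes had a length. The level per kilobase is the mean value minus log2 of the longest transcript in kilobases. Length trends were removed with a lowess curve (fraction 0.3). Promoters came from RefSeq, in which 60 of the 73 genes had one.

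Genes named are those past 0.3 in any comparison, in each family the 2 with the largest range and the highest level per kilobase, those below the minimum level, pathway genes past 0.3, and a few further members chosen after their values were seen. The members and lists were chosen with earlier results of these data known. Alternatives were cut-offs of 0.2 and 0.4, median centring, quantile normalization, a minimum mean of 7 or none, removal of the length trend, and a baseline averaged from LD and CE. The scripts were tested on simulated data and used python 3.11.15 with statsmodels 0.14.6, pandas 2.3.3, numpy 2.4.6, matplotlib 3.10.9 and scipy 1.17.1.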

Additional observations from a re-analysis of the deposited data

Results flagged for a closer look

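In 5 of the 69 guidance genes (7.25%), L-RUN and H-RUN lay on opposite sides of LD, each by at least 3 technical SDs, beside 87 of 13550 expressed genes (0.642%). The difference of L-RUN from LD was -0.14 and that of H-RUN 0.17 for Sema7a, and the same pair was -0.18 and 0.0945 for Epha4, -0.18 and 0.18 for Epha5, -0.0879 and 0.31 for Epha7, and -0.18 and 0.16 for Unc5c. With the trend with transcript length removed, the L-RUN difference was -0.00198 for Epha7, -0.0476 for Unc5c and -0.0838 for Epha5, so these 3 no longer met the limit, while Sema7a (-0.14 and 0.17) and Epha4 (-0.10 and 0.13) did, and Plxna3 (0.13 and -0.16) and Efnb2 (0.13 and -0.17) met it in the opposite direction. Before that removal, all 5 were lower than LD in the low runners and higher in the high runners, and 4 of them code for receptors. With 1 library per group, the difference between the 2 pools was not tested, and the mice of a pool cannot be told apart from how far they ran.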

How the results depend on the processing

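Over the 69 genes, 54 of 63 called differences recomputed under median centring, quantile normalization, removal of the length trend or a baseline averaged from LD and CE were still past the cut-off, 9 fell short of it and 0 changed sign. Of 1179 differences that were not called, 6 newly passed it and 95, of at most 0.11 in size, changed sign. Those that fell short were Dpysl3 in RUN (-0.27 with the length trend removed and -0.24 against the mean of LD and CE), Slit1 in L-RUN (-0.297 after quantile normalization and -0.28 by length), Dcc in L-RUN (-0.20 by length and -0.26 against LD and CE), Dpysl3 in L-RUN (-0.2997 against LD and CE), Sema7a (0.29 after quantile normalization) and Unc5c (0.27 by length) between the runner pools. Newly past it were Dpysl2 in L-RUN (0.32 after quantile normalization and 0.31 by length), Efnb2 between the pools (-0.31 by length), and Sema3c (0.31), Epha5 (0.31) and Efnb2 (-0.33) in H-RUN against LD and CE. Counts of called guidance genes moved with the cut-off. At 0.2 there were 11 in CE, 8 in RUN, 16 in L-RUN, 9 in H-RUN and 14 between the runner pools, where 3.77%, 4.66%, 9.93%, 3.31% and 4.93% of all expressed genes passed. At 0.4 there were 1 in RUN, 4 in L-RUN, 1 in H-RUN and 1 between the pools, where 0.384%, 1.36%, 0.280% and 0.598% passed. Against the mean of LD and CE, H-RUN held 5, beside 0.694% of all. With the length trend removed, the median of the guidance genes became 0.0603 in CE, 0.0420 in L-RUN, 0.0277 in RUN and -0.0142 between the runner pools, and -0.0531 in L-RUN against LD and CE. No paired analysis was possible because each group is 1 library, and for the same reason no replicate could be left out. The unknown depth leaves the precision of genes with low values unstated.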
